A study of Mus musculus with 2 samples.

Results

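Six-family genes encode homeodomain transcription factors and Eya genes encode their partners, and 9 of these genes were looked up by symbol in the deposited expression table of mouse intestinal crypts: Six2, Six3, Six4, Six5, Six6, Eya1, Eya2, Eya3 and Eya4. Of these 9 genes, 6 had a row among the 17216 genes of the table, 4 of them of the Six-family and 2 of the Eya family. Six6, Eya1 and Eya3 had no row and were not analysed here. The table holds bulk RNA-seq of small intestine crypts, the epithelial pits that contain stem and progenitor cells, from C57BL/6 mice in 2 libraries, 1 labelled WT and 1 labelled EedKO. The WT mouse carried AhCre, a Cre recombinase under a promoter that responds to the aryl hydrocarbon receptor. The EedKO mouse carried AhCre together with Eed fl/fl, floxed alleles of a gene whose product is a core part of PRC2, a Polycomb complex. Both genotypes were given β-naphthoflavone, which induces this Cre, in 3 injections and were killed at 15 days. The labels give neither the age of the mice nor the number of animals behind each library, and AhCre acts in other organs as well as in the gut. The question behind the comparison is what loss of PRC2 does to transcripts of the crypt.

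SIX-family proteins bind DNA through a homeodomain and bind EYA proteins through the neighbouring SIX-type domain. EYA proteins do not bind DNA themselves; they act as coactivators and carry a phosphatase domain. Together with PAX and DACH proteins they form a network first worked out in the eye of Drosophila, and in mice the network is used in the kidney, muscle, ear, eye and forebrain. Genes of this kind are textbook examples of loci that PRC2 holds silent outside their own tissue by methylating histone H3, often at promoters rich in CpG. Adult intestinal epithelium is not a tissue for which these genes are known.

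The promoters of 7 of the 9 genes were found in a RefSeq table of build GRCm38.p6, which holds 27025 genes. The 250 bases before the start site are printed for 4 of them because these hold the motifs described after them and the runs shared by pairs of them. No motif was in all 4, and Six5 held none. Capitals mark the motifs that are named after the sequences, on either strand. Six2 lies at chr17:85688255-85688504 (minus strand), Six3 at chr17:85620584-85620833 (plus strand), Six6 at chr12:72939632-72939881 (plus strand) and Six4 at chr12:73113246-73113495 (minus strand).
Six2: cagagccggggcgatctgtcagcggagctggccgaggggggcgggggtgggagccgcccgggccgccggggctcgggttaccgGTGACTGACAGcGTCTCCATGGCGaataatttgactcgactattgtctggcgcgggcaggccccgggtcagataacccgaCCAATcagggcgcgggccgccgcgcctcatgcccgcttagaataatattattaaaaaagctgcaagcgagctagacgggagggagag
Six3: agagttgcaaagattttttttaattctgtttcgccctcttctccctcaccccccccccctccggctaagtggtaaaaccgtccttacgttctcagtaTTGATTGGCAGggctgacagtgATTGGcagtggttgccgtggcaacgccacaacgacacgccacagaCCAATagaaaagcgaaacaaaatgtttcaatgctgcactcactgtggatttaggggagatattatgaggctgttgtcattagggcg
Six6: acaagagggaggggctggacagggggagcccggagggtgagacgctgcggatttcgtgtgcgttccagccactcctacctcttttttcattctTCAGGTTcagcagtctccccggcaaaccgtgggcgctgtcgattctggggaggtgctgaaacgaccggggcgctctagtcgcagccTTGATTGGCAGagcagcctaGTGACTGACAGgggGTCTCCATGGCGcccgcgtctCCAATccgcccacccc
Six4: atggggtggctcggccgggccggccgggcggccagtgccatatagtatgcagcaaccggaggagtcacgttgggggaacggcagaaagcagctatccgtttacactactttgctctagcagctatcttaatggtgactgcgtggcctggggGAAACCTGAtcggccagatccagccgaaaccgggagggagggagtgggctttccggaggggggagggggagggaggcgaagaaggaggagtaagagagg

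The promoters of Six2 and Six6 held the same pair of runs in the same order, GTGACTGACAG followed by GTCTCCATGGCG. In Six2 these runs began 167 and 155 bases before the start site, and in Six6 they began 51 and 37 bases before it. GTGACTGACAG was in 0.0333% of the 27025 promoters on either strand and GTCTCCATGGCG in 0.0296%. Six3 and Six6 shared TTGATTGGCAG, also found in 0.0333% of promoters. These are the 3 runs of at least 11 letters, with all 4 bases in them, that came out of comparing the 7 promoters. The comparison took 21 pairs on the same strand. The runs were picked because they are shared, and long runs are seldom found, so their low shares lend the sharing no weight. They were not tested. Six2, Six3 and Six6 each held CCAAT, the box of many vertebrate promoters, which 34.5% of promoters hold and which overlaps TTGATTGGCAG on the opposite strand. Six4 held TCAGGTTTC on the opposite strand, 99 to 91 bases before its start site. This is the MEF3 motif, known as a binding sequence of SIX-family proteins in muscle genes, and 0.403% of promoters hold it. Its shorter core TCAGGTT, which lies inside it, was in 3.49% of promoters, Six4 and Six6 among them. A match in letters is a description and does not show a binding site.

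CpG content was counted in 300 bases, from 250 before the start site to 50 after it, as the number of CpG observed over that expected from the base composition. This measure was 1.13 for Six2, with 37 CpG, and 0.747 for Six3, with 14. Six4 stood at 0.713 and Six5 at 0.559, while Eya4 stood at 1.02 and Eya3 at 0.955. Six6, at 0.689, lay between Six5 and Six4. All 7 were above the median over all promoters, 0.389, but the median over promoters of 8203 genes whose mean normalized level was 20 or more was 0.767. Six3, Six4, Six5 and Six6 lay below the latter median, and Six2, Eya3 and Eya4 lay above it.

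The libraries were of similar depth. The WT library held 6970733 reads assigned to transcripts and the EedKO library 5918162. Eed, the targeted gene, had 588 reads in the WT library and 183 in the EedKO library, 3.08-fold lower (95% counting interval 2.61 to 3.66). All 12 markers of crypt epithelium were within 2-fold, and their summed normalized reads were 37264 and 37047. Those that differed most were Cdx2, 1.86-fold lower (1.720 to 2.005), Olfm4, 1.54-fold lower (1.45 to 1.64), and Lgr5, 1.36-fold higher (1.20 to 1.53). Each ratio here is the EedKO level over the WT level after scaling by the authors' size factors, and each interval covers counting error only. With 1 library per genotype there is no replicate check, and no genotype difference was tested. Genes were called by size: normalized reads, each plus 1, had to differ by at least 2-fold, with a mean of at least 20.

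Six2 and Six3 had 3 or 4 reads in the WT library and over 100 in the EedKO library, and Six4 and Six5 were 3.32-fold and 3.15-fold higher. Eya2 and Eya4, the Eya genes with a row, were close to nothing in both libraries. Of the 4 genes that reached the mean of 20, 4 were called higher and 0 lower. Over the whole table, 11.2% of the 10879 genes with that mean were called higher and 3.58% lower. The filter favours genes that are high in either library: Six2 and Six3 pass it through their EedKO reads alone, while Six4 and Six5 were above 20 normalized reads in the WT library as well. With no filter, 5 of the 6 genes with a row were at least 2-fold higher, against 16.4% of all 17216 genes, and 0 of the 6 were at least 2-fold lower, against 4.22%.

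**Figure D1:**
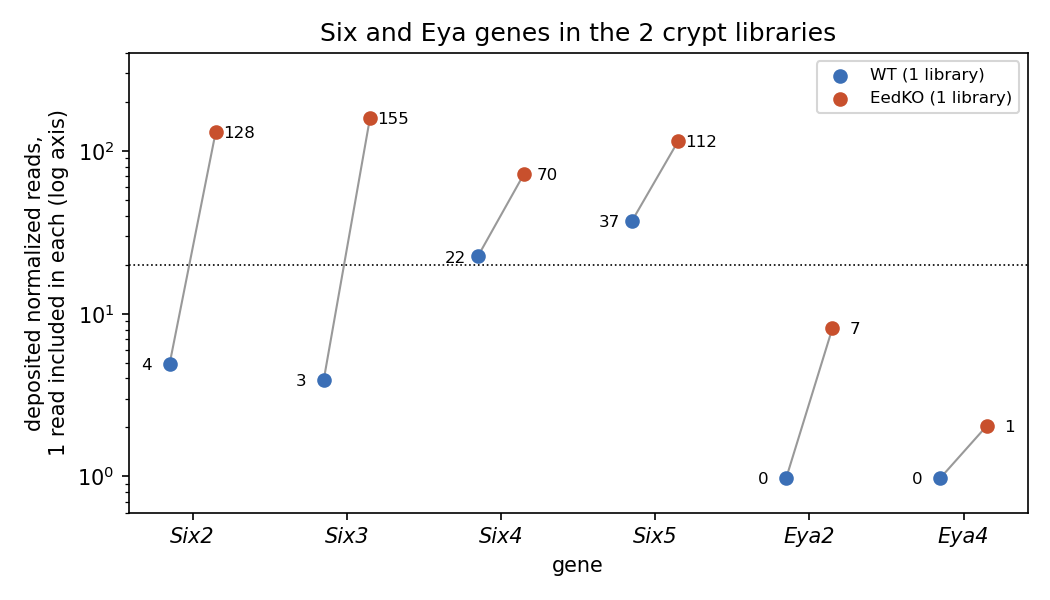
Deposited normalized reads of the 6 Six-family and Eya genes with a row (vertical log axis; each value includes 1 added read), with the WT library in blue and the EedKO library in red; the number beside each point is the reads recovered and the dotted line is the mean of 20 used as a filter. Six2 goes from 4 to 128 reads and Six3 from 3 to 155, while Eya4 stays at 0 and 1.

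Six3, which patterns the anterior forebrain and the eye, had 3 reads in the WT library and 155 in the EedKO library. The EedKO level was 53.8-fold higher (95% counting interval 18.1 to 264), a log2 ratio of 5.03 on the scale of values plus 1. The interval is wide because it rests on 3 WT reads. In rank Six3 stood at place 79 from the top among the 10879 genes.

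Six2, which keeps nephron progenitors of the embryonic kidney from differentiating and also acts in the mesenchyme of the pylorus, had 4 reads in the WT library and 128 in the EedKO library. The ratio was 33.4 (12.7 to 124), the log2 ratio 4.49 and the rank 121. The intervals of Six2 and Six3 overlap, so counting error alone does not separate their ratios. Of the 4708 genes with at most 5 WT reads, 73 (1.55%) had at least 100 EedKO reads, Six2 and Six3 among them. These limits were set after the values were seen.

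Six5, which lies next to the myotonic dystrophy kinase gene Dmpk, had 37 reads in the WT library and 112 in the EedKO library. That is a ratio of 3.15 (2.16 to 4.71) and a log2 ratio of 1.61. Six4, which acts in muscle precursors, had 22 reads in the WT library and 70 in the EedKO library. Its ratio was 3.32 (2.03 to 5.62) and its log2 ratio 1.64. Six4 and Six5 could not be told apart from each other by counting error, and the intervals of both lay below those of Six2 and Six3. They stood at places 735 and 759 of 10879.

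Eya2, a coactivator of the family, had 0 reads in the WT library and 7 in the EedKO library. With the WT library put at a floor of 3 reads, the ratio would be 2.43, and the 95% counting limit puts it at 1.502 or more. Its mean was under 20 and it was not called. Eya2 has 2 transcript rows with equal reads, and the same reads may have been counted in both. Eya4, known for its roles in hearing and the heart, had 0 and 1 reads and gave no ratio. A difference in Eya4 was not detectable at this depth.

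**Figure D2:**
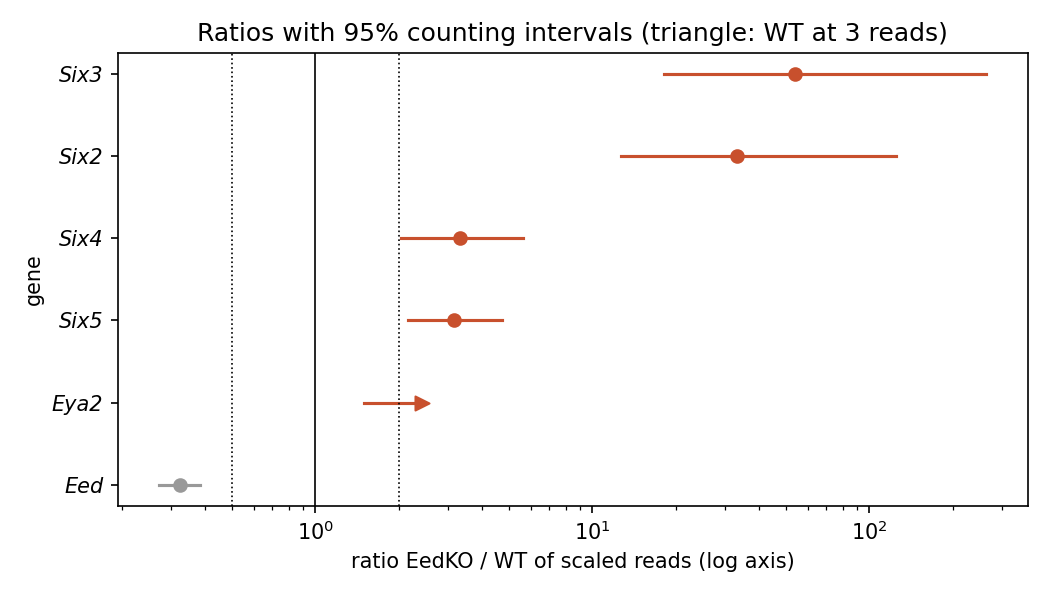
Ratio of EedKO to WT scaled reads (horizontal log axis) for each gene, with 95% counting intervals as lines; for Eya2, at 0 WT reads, the triangle is the ratio with the WT library at 3 reads and the line starts at the 95% lower limit of 1.502, red marks the Six-family and Eya genes, and grey marks the targeted gene Eed for comparison. Six3 and Six2 lie at 53.8 and 33.4, well to the right of Six4 and Six5 at 3.32 and 3.15, and Eed lies left of 1.

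By the authors' deposited table, Six3 had an adjusted p of 0.00385 and Six2 one of 0.0265. The same deposited table gives Six4, Six5, Eya2 and Eya4 an adjusted p of 1. In the authors' deposited table as a whole, 183 of 17216 genes (1.06%) had an adjusted p below 0.05, and 167 (0.97%) had one and were higher in the EedKO library. Such p-values set 1 library against 1 and hold no measure of the spread between animals.

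**Figure D3:**
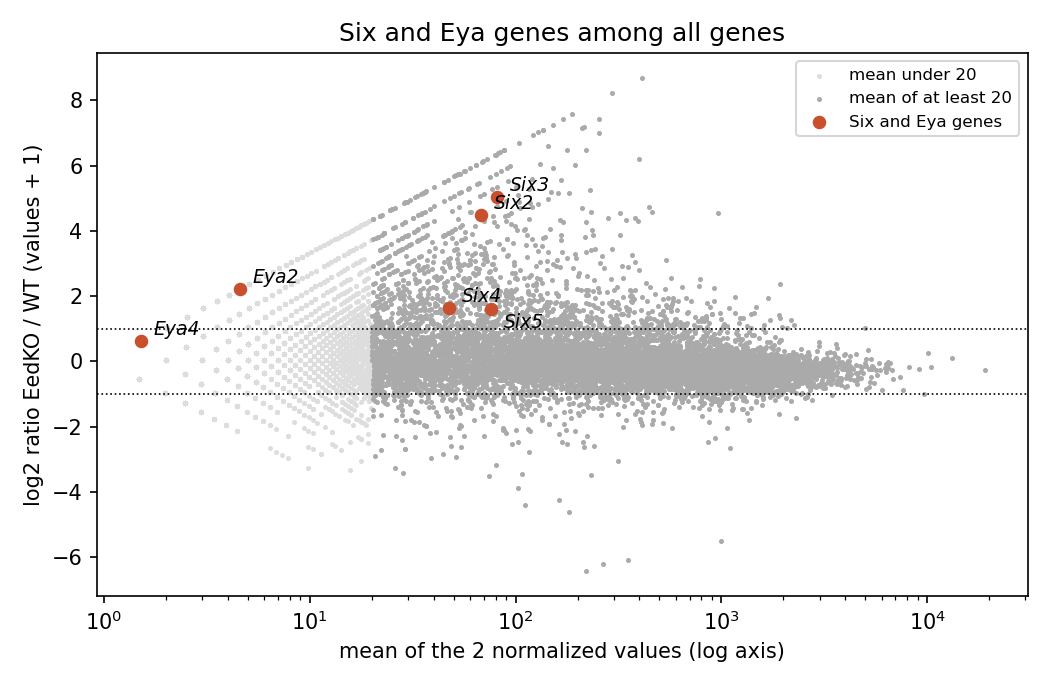
Log2 ratio of EedKO to WT (vertical axis, values plus 1) against the mean of both normalized values (horizontal log axis) for all 17216 genes; pale grey points have a mean under 20, dark grey points at least 20, and red points are the Six-family and Eya genes. Six3 and Six2 lie at 5.03 and 4.49 in the sparse upper part, Six4 and Six5 at 1.64 and 1.61, above the dotted line of 2-fold, and Eya2 and Eya4 at the left edge where few reads fix the ratio.

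Levels of different genes were compared per kilobase of transcript, as normalized reads per kb with 95% counting intervals. In the WT library Six5 was highest, at 12.1 reads per kb (8.49 to 16.6), and Six4 followed at 3.37 (2.11 to 5.10). Six2, at 1.85 (0.504 to 4.73), and Six3, at 0.799 (0.165 to 2.33), were lower. The intervals of Six2, Six3 and Six4 overlap one another, and that of Six5 overlaps none of the others. Eya2 and Eya4 were at 0 reads. For them the floor of 3 reads, used in place of a 95% limit, gives 1.20 and 0.554 reads per kb.

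The order differed in the EedKO library. Six2 was highest, at 61.7 reads per kb (51.4 to 73.3), above Six3 at 43.0 (36.5 to 50.3). Six5, at 38.0 (31.3 to 45.8), overlapped with Six3. Six4 was lower, at 11.2 (8.70 to 14.1), and Eya2 lower again, at 2.92 (1.17 to 6.02). Eya4 had 0.192 reads per kb (0.00487 to 1.07). All of these levels were under that of Eed in the same library, 90.4 reads per kb, itself reduced from 279. In bulk RNA, more cells with a transcript and more transcript per cell cannot be told apart.

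Over the 4 called genes the median log2 ratio was 3.07, and over all 6 with a row it was 1.93. With the WT reads of Eya2 put at the floor and Eya4 left out as too low in both libraries, the median of 5 genes was 1.73. The median of all tested genes was -0.11. Scaling to the library totals raised EedKO over WT by 0.18 on the log2 scale, and by less after 1 is added in genes of few reads, as in Eya4, which went from 0.62 to 0.72. Of all genes called under that scaling, 85.9% were higher, against 75.7% under the authors' scaling. All of Six2, Six3, Six4 and Six5 kept their call under each scaling tried.

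Six3 and Six2 lie side by side on chromosome 17, and Six6 and Six4 both lie on chromosome 12. Six3os1, a noncoding gene whose annotated span overlaps that of Six3, had 0 and 10 reads in its highest row. Whether counting used strand is not stated in the labels, so reads of Six3 and Six3os1 cannot be told apart where they overlap.

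Of 29 genes described here that lie within 2 places of any of the 9 genes, 9 had a row, 7 had a mean of at least 20, and of these 1 was called higher and 1 lower. The higher one, beside Eya2, was the glucose transporter gene Slc2a10, 2.06-fold higher (1.72 to 2.46) at 191 and 377 reads. Mnat1, which follows Six4 and encodes a subunit of the CDK-activating kinase, had 149 and 221 reads, a ratio of 1.55 (1.25 to 1.92) that did not reach 2-fold. Fbxo46, near Six5, had 334 and 201 reads, 1.59-fold lower (1.33 to 1.91). The lower one, Xkr8, a phospholipid scramblase gene beside Eya3, had 219 and 77 reads, 2.73-fold lower (2.10 to 3.59). The others with enough reads, Zmynd8 near Eya2 (107 and 52 reads) and Ptafr and Smpdl3b near Eya3 (44 and 39, 1601 and 1045), were within 2-fold. The protein-coding gene 4930447C04Rik, next to Six6, had 0 and 3 reads.

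**Figure D4:**
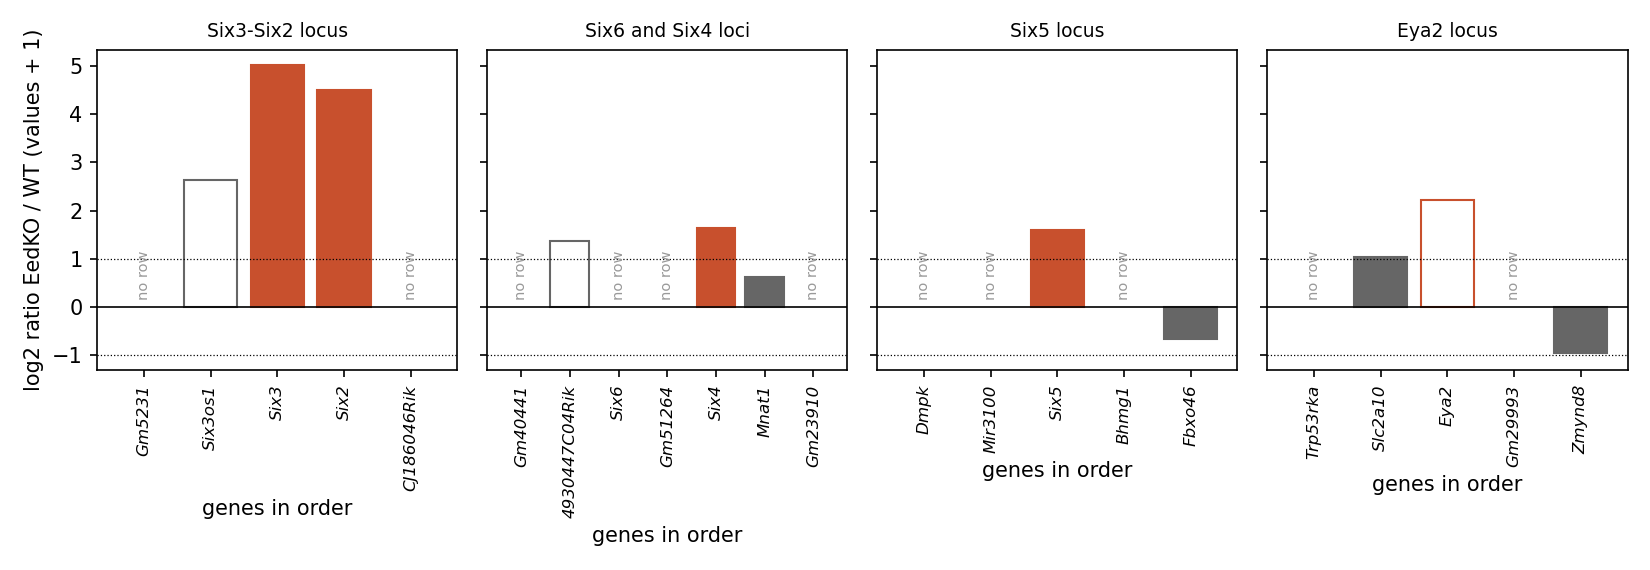
Log2 ratio of EedKO to WT (vertical axis, values plus 1) for the genes described here, in chromosomal order, in 4 panels, with members of the Six-family and Eya family in red, neighbours in grey, open bars for a mean under 20 and no bar where the table has no row; dotted lines mark 2-fold. Six3 and Six2 are the tall filled bars, at 5.03 and 4.49, and Six3os1 in the same panel is an open bar at 2.63. In the other panels, Mnat1 beside Six4 is at 0.62 and Fbxo46 near Six5 at -0.67. Near Eya2, Slc2a10 is at 1.03 and Zmynd8 at -0.95. The Eya1, Eya3 and Eya4 loci are not drawn, so Xkr8, the neighbour called lower, is not shown.

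Of the other genes of the network, the Pax genes, Dach1 and Dach2 are described here, 11 in all, and 4 of them were at 0 reads in the WT library. All 11 had a row, 4 had a mean of at least 20, and of these 3 were called higher and 1 lower. The 3 called higher passed the filter through their EedKO reads alone. Pax2, a kidney and ear regulator, had 0 and 140 reads, 48.6-fold higher with the WT library at the floor. Folds at the floor take the EedKO reads as exact, and the 95% counting limit for Pax2 is lower, at 39.0. Pax9, a gene of pharyngeal pouches and teeth, had 1 and 66 reads, a ratio of 68.8 (11.9 to 2758). Pax1, which acts in the vertebral column and thymus, had 6 reads in the WT library and 65 in the EedKO library, a ratio of 11.3 (4.92 to 31.9). Pax8, a thyroid and kidney regulator, was the gene called lower, with 235 and 58 reads, 3.89-fold lower (2.91 to 5.28). Dach1 and Dach2, the remaining arm of the network, had 6 and 6 and 2 and 2 reads. Over the 7 genes above 3 reads in either library, with 0 reads put at the floor, 5 were at least 2-fold higher and 1 lower. The share of all genes under this rule was not counted, so this count and those of the later lists have no background beside them.

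Among genes for proteins that bind SIX-family or EYA proteins, most of those above the filter were not called. Of 9 partner genes above the filter, 2 were called higher and 1 lower, and their median log2 ratio was -0.36. Sobp, named for binding the Drosophila protein Sine oculis, had 9 and 31 reads and was 3.59-fold higher (1.67 to 8.57). It passed the filter through its EedKO reads alone, so its direction was fixed by the filter. Tle6, a Groucho-type gene, had 64 and 163 reads, 2.65-fold higher (1.98 to 3.60). Tle4, one of the Groucho corepressors that Six3 recruits, had 1152 and 545 reads, 2.03-fold lower (1.83 to 2.25). Mcrs1, at 80 and 44 reads, was 1.74-fold lower (1.19 to 2.58) and not called. Over the 14 partner genes above 3 reads in either library, with 0 reads at the floor, 2 were at least 2-fold higher and 2 lower.

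Lists of genes from the tissues in which SIX-family and EYA proteins act are given next. The lists were chosen with earlier results of these data known. As with Six2 and Six3, a gene with few WT reads passes the filter only through its EedKO reads. Such a gene can then only be called higher. In the nephron progenitor list, 6 of 7 genes with enough reads were called higher and 0 lower. Sall1, a zinc finger factor of these progenitors, had 0 and 124 reads, 43.1-fold higher at the floor (lower limit 34.5). Wnt4, the signal that turns them into epithelium, had 31 reads in the WT library and 644 in the EedKO library, a ratio of 21.7 (15.1 to 32.1). Hoxa11 had 0 and 171 reads, 59.4-fold higher at the floor (lower limit 47.8). Gas1, a hedgehog co-receptor gene, had 2 and 40 reads, a ratio of 20.8 (5.41 to 178). Sall1, Hoxa11 and Gas1 passed the filter through their EedKO reads alone. Osr1 and Gdnf, 2 further genes of early kidney induction that were named after their values were seen, had 1 and 3 and 0 and 2 reads. Over the 11 list genes above 3 reads in either library, 8 were at least 2-fold higher with 0 reads at the floor.

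In the eye and pituitary list, 3 of 3 genes with enough reads were called higher. All 3 passed the filter through their EedKO reads alone, so their direction was fixed by the filter. Lhx2, an eye field factor, had 0 and 170 reads, 59.1-fold higher at the floor (lower limit 47.5). Lhx3, a pituitary factor, had 0 and 56 reads, 19.5-fold higher at the floor (lower limit 15.3). Shh, with 4 and 90 reads, was 23.4-fold higher (8.85 to 87.9). The eye field gene Rax and the forebrain and eye genes Otx2 and Crx, named after their values were seen, had at most 2 reads in either library. In the cranial placode and ear list, 4 of 8 were called higher and 0 lower: Sox2 (1 and 127 reads), Dlx3 (0 and 46), Gata3 (3 and 48) and Pou4f1 (11 and 72). The pylorus list had 2 of 2 called higher, Barx1 with 1 and 496 reads and Sfrp1 with 4 and 42. The 4 genes called in the placode list and the 2 in the pylorus list also passed the filter through EedKO reads alone. Over the genes above 3 reads in either library, with 0 reads at the floor, 4 of 4 were at least 2-fold higher in the eye list, 7 of 11 in the placode list and 4 of 4 in the pylorus list. No share over all genes was counted under this rule.

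In the muscle list, 0 of 3 genes with enough reads were called in either direction. Met, the receptor gene that guides migrating muscle precursors and is also an epithelial gene, had 1354 and 868 reads, a ratio of 0.668 (0.613 to 0.728). Mylpf, a myosin light chain gene of fast muscle, had 44 and 21 reads, 2.01-fold lower (1.17 to 3.56) on scaled reads but a log2 ratio of -0.94 on values plus 1. Tnni2 had 18 and 20 reads. Lbx1, a regulator of migrating muscle precursors, had 0 and 21 reads, 7.30-fold higher at the floor (lower limit 5.43), with a mean under 20. Over the 6 list genes above 3 reads in either library, 1 was at least 2-fold higher with 0 reads at the floor and 1 lower. Of the 15 genes on this list 7 had no row, so the 3 tested genes are a small part of it, and the lists were not tested against each other.

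**Figure D5:**
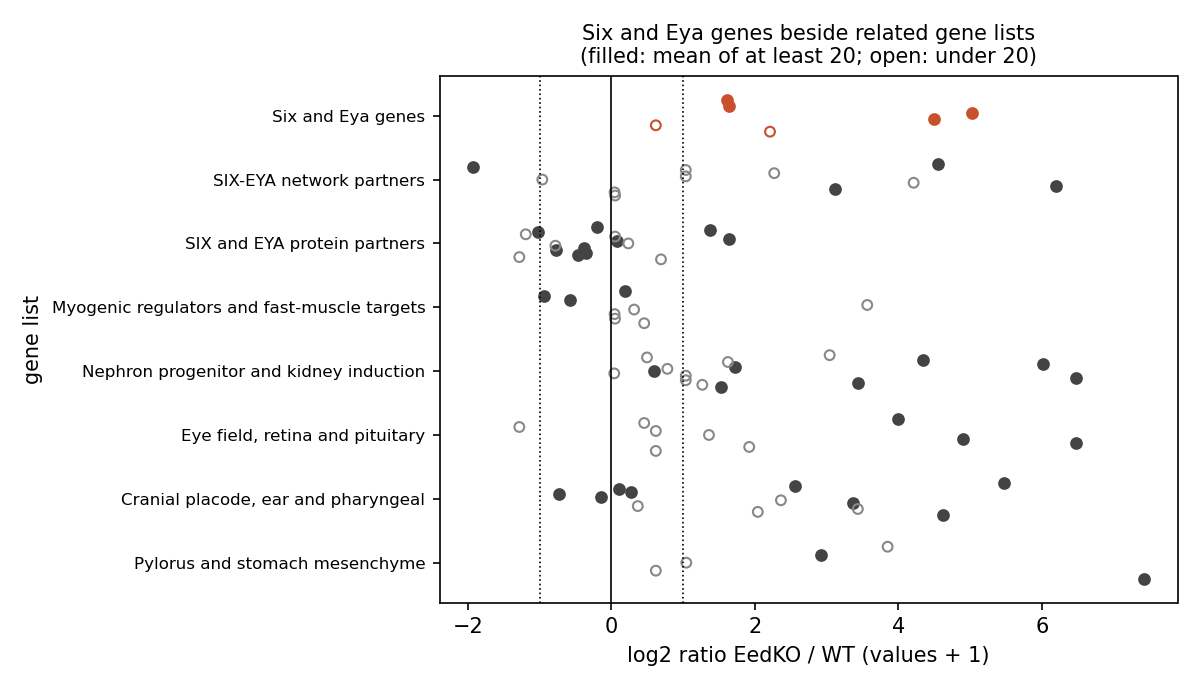
Log2 ratio of EedKO to WT (horizontal axis, values plus 1) of each gene with a row, by gene list (vertical axis), with the Six-family and Eya genes in red; filled points have a mean of at least 20 and open points a lower mean, and dotted lines mark 2-fold. Filled points to the right of the line make up 4 of 4 genes of the Six-family, 6 of 7 kidney genes, 3 of 3 eye genes and 2 of 2 pylorus genes. They also make up 4 of 8 placode genes, 3 of 4 network genes with 1 called lower, 2 of 9 protein partners and 0 of 3 muscle genes. Lbx1 is an open point to the right of the line. Over all genes the share was 11.2%, and many of these genes passed the filter through EedKO reads alone.

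Markers of some cell types outside the crypt epithelium also differed between the libraries. In the list of smooth muscle and fibroblast genes 3 of 5 were called higher and 0 lower, and summed normalized reads were 386 in the WT and 842 in the EedKO library. Those 3 were Col1a1 (1 and 155 reads), Col1a2 (0 and 124) and Col3a1 (6 and 198), while Vim (265 and 210) and Tagln (113 and 100) were within 2-fold. The 3 collagen genes passed the filter through their EedKO reads alone. The other 6 genes of the list with a row had a mean under 20: Lum (0 and 16), Des (2 and 8), Acta2 (4 and 8), Cnn1 (2 and 5), Dcn (0 and 1) and Pdgfra (1 and 0). Over the 9 genes of the list above 3 reads in either library, with 0 reads at the floor, 7 were at least 2-fold higher and 0 lower. All 9 exocrine pancreas genes with a row were called higher, with summed normalized reads of 152 and 1944. All but Cela1 (109 and 271 reads) passed the filter through EedKO reads alone. Among immune markers 2 of 3 were higher, Lyz2 (27 and 230 reads) and Csf1r (28 and 94), and sums were 149 and 436. Among endothelial markers the 1 with enough reads, Vwf (22 and 54), was higher, with sums of 39.2 and 91.9. The other endothelial markers with a row had a mean under 20: Kdr (2 and 21 reads), Tek (12 and 10) and Cdh5 (4 and 5). Pecam1 and Emcn had no row. Neural and glial markers had 0 of 3 called, with sums of 86.2 and 115, and skeletal muscle markers 0 of 1, with sums of 46.0 and 26.5. The part of these cells in the reads of Six2, Six3, Six4 and Six5 was not tested.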

How the data were processed

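Bulk RNA-seq of small intestine crypts was taken from 1 WT and 1 EedKO library. Library preparation used the TruSeq RNA kit, per the labels. The submitters' processing notes name TopHat, DESeq and the build mm9; no source used here states how reads were counted or whether strand was used. Per the file headers, the deposited table holds DESeq output: a normalized signal per library (reads over a size factor). It also holds the authors' p-values, their ratio or fold change, and the log2 of that ratio, as deposited.

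Within 1e-06, 100% of the values in each library are whole multiples of the lowest, so reads were recovered. As 0 of 18766 rows are at the lowest value in both libraries, 1 read was taken to have been added throughout and was removed from printed reads. No count model was fitted to the recovered reads, because 1 library per group leaves no residual degrees of freedom.

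A gene is its row with the highest mean. The log2 ratio uses a pseudocount of 1. Intervals are exact Clopper-Pearson (ratios, given the sum) or Poisson (levels) 95% intervals, and a library at 0 takes a floor of 3 reads. Intervals and floors cover counting error only. They treat reads as independent, which PCR copies of a molecule are not, so the intervals may be too narrow. Transcript lengths came from GENCODE vM21 by accession and gene order and promoters from RefSeq GRCm38.p6, which is not the authors' build. No deposited coordinate was used.

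The genes and lists were chosen with earlier results of these data known. Named genes were all 9, Eed, the 2 nearest genes on each side, up to 4 per list with the largest log2 ratio, and markers; 1 gene of the neighbour and network lists is not reported here. With 2 libraries no likeness of pattern to other genes could be measured. Alternatives were other pseudocounts, scalings, filters, thresholds and row choices. Functions were tested on simulated data. The tools were SciPy 1.17.1, pandas 2.3.3, NumPy 2.4.6 and Matplotlib 3.10.9 under Python 3.11.15.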

Additional observations from a re-analysis of the deposited data

How the results depend on the processing

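Six2, Six3, Six4 and Six5 were higher under every pseudocount, scaling, fold threshold and row choice tried. The count of Six-family and Eya genes called higher stayed at 4, except that it was 5 with no filter, which adds Eya2, and 3 with the filter raised to 50, which drops Six4. Log2 ratios ranged from 3.25 to 4.74 for Six2, 3.60 to 5.34 for Six3, 1.34 to 1.81 for Six4 and 1.41 to 1.78 for Six5. The median of the called genes went from 3.07 to 4.49 with that higher filter, as fewer genes were left.

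The count of all genes called higher, 1217, became 1837 at 1.5-fold, 770 at 3-fold, 778 with the filter at 50 and 2825 with none. The count called lower, 390, became 1430, 107, 237 with scaling to library totals, 246 with scaling by the median ratio and 726 with no filter. The median CpG measure of the 7 promoters lay at percentile 74.3 among all promoters and 46.6 among those of the tested genes. Taking 1 read off every value was chosen after seeing the data and kept all 4 calls. No paired analysis was possible because each genotype has 1 library. Depth limits Eya2 and Eya4, and the wild-type reads of Six2 and Six3 leave their ratios with wide intervals.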
